A study of Mus musculus with 15 samples.

Results

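The 10 core genes of the circadian clock were followed in 2 mouse cell lines exposed to dexamethasone: the Period genes Per1, Per2 and Per3, the Cryptochrome genes Cry1 and Cry2, the Rev-erb genes Nr1d1 and Nr1d2, and the activators Arntl (also called Bmal1), Clock and Npas2. They were taken by name, with no threshold on a measured value, but with earlier results of these data known. All 10 had a gene value among the 15041 genes measured, and 9 were bright enough to stand among the 9927 genes tested. Npas2 was too dim. RNA came from 3134 cells, which derive from the C127 mammary line by transformation and trace back to an adenocarcinoma of the RIII mouse, and from AtT-20 cells, a corticotroph line of the mouse pituitary. Cells of both lines were kept in serum stripped with charcoal and dextran and then given 100 nM dexamethasone, a synthetic glucocorticoid, for 2, 4 or 8 h. The reference of each line is its own 0 h arrays, described in the labels both as untreated and as vehicle treated. There were 15 Affymetrix exon arrays, 2 for each line and time but a single one for AtT-20 at 8 h. Cells cultured alongside without hormone were not measured at the later times, so effects of dexamethasone and of time in culture cannot be told apart.

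In the mammalian clock, ARNTL pairs with CLOCK, or with its relative NPAS2, and binds E-box sequences to switch on the Per, Cry and Nr1d genes. PER and CRY proteins return to the nucleus and repress that activator, while the REV-ERB repressors made by Nr1d1 and Nr1d2 act on Arntl through elements they share with the ROR activators. Glucocorticoids are known to reset the clocks of peripheral tissues, and Per1 and Per2 are known targets of the glucocorticoid receptor.

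All levels below are log2 values after quantile normalisation of the arrays, and the level of a gene is the median over its probesets, which are small groups of probes that each lie in one stretch of an exon. Levels of different genes are not compared, because probes differ in brightness. A gene is called changed when its limma test against 0 h has an adjusted p under 0.05 over all 9927 genes. With so few arrays per group, treated and 0 h arrays can also stand apart without a call, as those of Clock did in AtT-20 at 4 h. The share of all genes where they do was not worked out, so such statements only describe the arrays. A probeset or gene is called bright when its highest group mean reaches log2 6.59, the 40th percentile of all values. Serial numbers in the titles fall into a lower and a higher set in each line, and replicate 1 is the lower one. Arrays of 1 set and line deviated together, so a fit with the set as a replicate block is given beside a gene's change from 0 h where it changes the call. The known glucocorticoid target Fkbp5 was higher on every treated array of both lines, with mean differences from 0 h of 2.66 to 3.05 in 3134 cells, all called, and of 0.70 to 1.11 in AtT-20 cells, called at 4 h (limma adjusted p = 0.015), and at 8 h only with the block (0.0931 without it, 0.0222 with it). Markers matched the label of AtT-20, where 6 of 6 corticotroph genes were bright at 0 h, against 0 of 6 in 3134. The mammary label of 3134 was less plain: 1 of 5 epithelial markers was bright (Krt8, at 6.77) and 5 of 6 mesenchymal ones were, with Vim at 13.22 and Col1a2 at 12.69. AtT-20 had 3 of 5 epithelial and 1 of 6 mesenchymal markers bright. Of the 5 measured markers of other pituitary cell types none was bright in either line. Of the 2 immune markers listed, the macrophage gene Cd68 was bright in 3134 only, at 7.69 against 6.06 in AtT-20. The other, Ptprc, was bright in neither line, at 3.71 in 3134 and 3.89 in AtT-20.

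The promoter sequences are shown first for the genes whose windows hold one of the clock elements searched for, since these elements are how the genes are wired to each other. RefSeq windows of GRCm38.p6 ran from 250 bases before to 50 bases after a start. They were given for 9 of the 10 genes, all but Per2, 13 windows in all. Each sequence runs 5′ to 3′ on the strand of its gene, and capitals mark the element found.
Per1 upstream window, chr11:69098699-69098998, plus strand: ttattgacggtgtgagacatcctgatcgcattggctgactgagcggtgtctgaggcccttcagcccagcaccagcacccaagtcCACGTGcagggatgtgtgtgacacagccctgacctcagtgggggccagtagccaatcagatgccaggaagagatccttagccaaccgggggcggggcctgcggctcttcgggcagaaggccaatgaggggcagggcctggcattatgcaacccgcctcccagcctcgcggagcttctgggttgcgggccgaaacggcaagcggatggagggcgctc
Per3 window, chr4:151044616-151044915, minus strand: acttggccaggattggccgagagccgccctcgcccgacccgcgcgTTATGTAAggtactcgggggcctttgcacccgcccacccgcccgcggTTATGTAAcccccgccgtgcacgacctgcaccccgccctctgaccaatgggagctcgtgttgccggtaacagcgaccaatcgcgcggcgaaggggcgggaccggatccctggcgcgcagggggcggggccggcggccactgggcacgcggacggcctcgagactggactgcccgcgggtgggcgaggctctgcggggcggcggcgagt
Cry1 window, chr10:85185005-85185304, minus strand: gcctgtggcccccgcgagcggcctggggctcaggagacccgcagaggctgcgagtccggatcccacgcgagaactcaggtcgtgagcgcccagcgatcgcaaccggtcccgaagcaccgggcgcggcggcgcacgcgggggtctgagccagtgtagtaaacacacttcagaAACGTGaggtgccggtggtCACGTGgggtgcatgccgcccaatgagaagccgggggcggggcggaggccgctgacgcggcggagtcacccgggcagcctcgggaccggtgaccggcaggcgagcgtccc
Cry2 window, chr2:92434020-92434319, minus strand: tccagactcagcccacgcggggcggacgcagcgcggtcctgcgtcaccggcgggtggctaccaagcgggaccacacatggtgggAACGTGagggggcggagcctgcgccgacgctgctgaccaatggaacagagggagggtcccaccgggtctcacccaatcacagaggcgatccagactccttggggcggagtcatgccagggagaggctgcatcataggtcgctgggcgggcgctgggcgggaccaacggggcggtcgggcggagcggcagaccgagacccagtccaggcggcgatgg
Nr1d1 window, chr11:98775328-98775627, minus strand: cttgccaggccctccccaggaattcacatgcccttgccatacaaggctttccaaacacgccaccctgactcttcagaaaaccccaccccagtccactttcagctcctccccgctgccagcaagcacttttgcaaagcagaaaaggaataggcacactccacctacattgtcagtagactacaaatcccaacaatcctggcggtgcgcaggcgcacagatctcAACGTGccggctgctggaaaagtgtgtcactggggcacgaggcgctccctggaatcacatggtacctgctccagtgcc
Arntl downstream window, chr7:113207261-113207560, plus strand: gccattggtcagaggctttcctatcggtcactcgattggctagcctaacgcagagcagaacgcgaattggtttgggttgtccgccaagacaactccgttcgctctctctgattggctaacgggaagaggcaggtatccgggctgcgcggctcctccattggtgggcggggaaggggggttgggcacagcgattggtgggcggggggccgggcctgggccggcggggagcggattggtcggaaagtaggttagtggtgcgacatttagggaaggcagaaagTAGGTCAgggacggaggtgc
The Per1 window holds the E-box CACGTG at -166 to -161, counting the annotated start as 0. The 7.15% of 32841 windows of all genes that hold this E-box on either strand are the background to that match. Per1 has a second window, from an alternative start, in which none of the searched elements was found. Nor was any found in the windows of Nr1d2, Clock and Npas2 or in the upstream window of Arntl. Cry1 holds the same E-box at -60 to -55, and beside it, at -79 to -74, the variant CACGTT read on the opposite strand and so shown as AACGTG. The variant also stands at -28 to -23 in the Nr1d1 window, and in a Cry2 window at -166 to -161, and 4.69% of all windows hold it. Per3 holds the D-box TTATGTAA at -205 to -198 and again at -158 to -151, a sequence present in 0.938% of windows and known to bind DBP, TEF, HLF and their repressor NFIL3. Arntl holds TAGGTCA, the core of the elements bound by ROR and REV-ERB proteins, at 30 to 36 after the start of its downstream window, and 2.61% of all windows hold it. The cyclic AMP element TGACGTCA, in 1.79% of windows, and the strict palindrome of the glucocorticoid receptor element, in 0.475%, matched no window of these genes. All motifs were searched on both strands, and a match or its absence describes these letters in these windows only.

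In 3134 cells the calls came at different times: Per1 was called from 2 h, Per2 was called from 4 h, and Cry1 (higher) and Nr1d1 (lower) at 8 h. In AtT-20 cells Per1 was the only one of the 9 called at each time. In 3134, limma called 1 of the 9 higher and 0 lower at 2 h, beside 1.22% of all genes, 2 higher and 0 lower at 4 h, beside 1.91%, and 3 higher and 1 lower at 8 h, beside 2.19%. In AtT-20 it called 1 higher and 0 lower at each of the 3 times, beside 0.0907% (2 h), 0.171% (4 h) and 0.121% (8 h) of all genes. The median log2 fold change of the 9 was 0.02, 0.25 and 0.51 at 2, 4 and 8 h in 3134 and -0.01, 0.08 and 0.51 in AtT-20, with medians of all genes between -0.02 and 0.01. With the replicate block the counts at 2 h and 8 h in 3134 were 2 higher, beside 2.98% of all genes, and 4 higher with 3 lower, beside 7.88%. At 4 h in AtT-20 the block gave 2 higher, beside 0.866%. The 3 comparisons of a line use the same 0 h arrays.

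**Figure D1:**
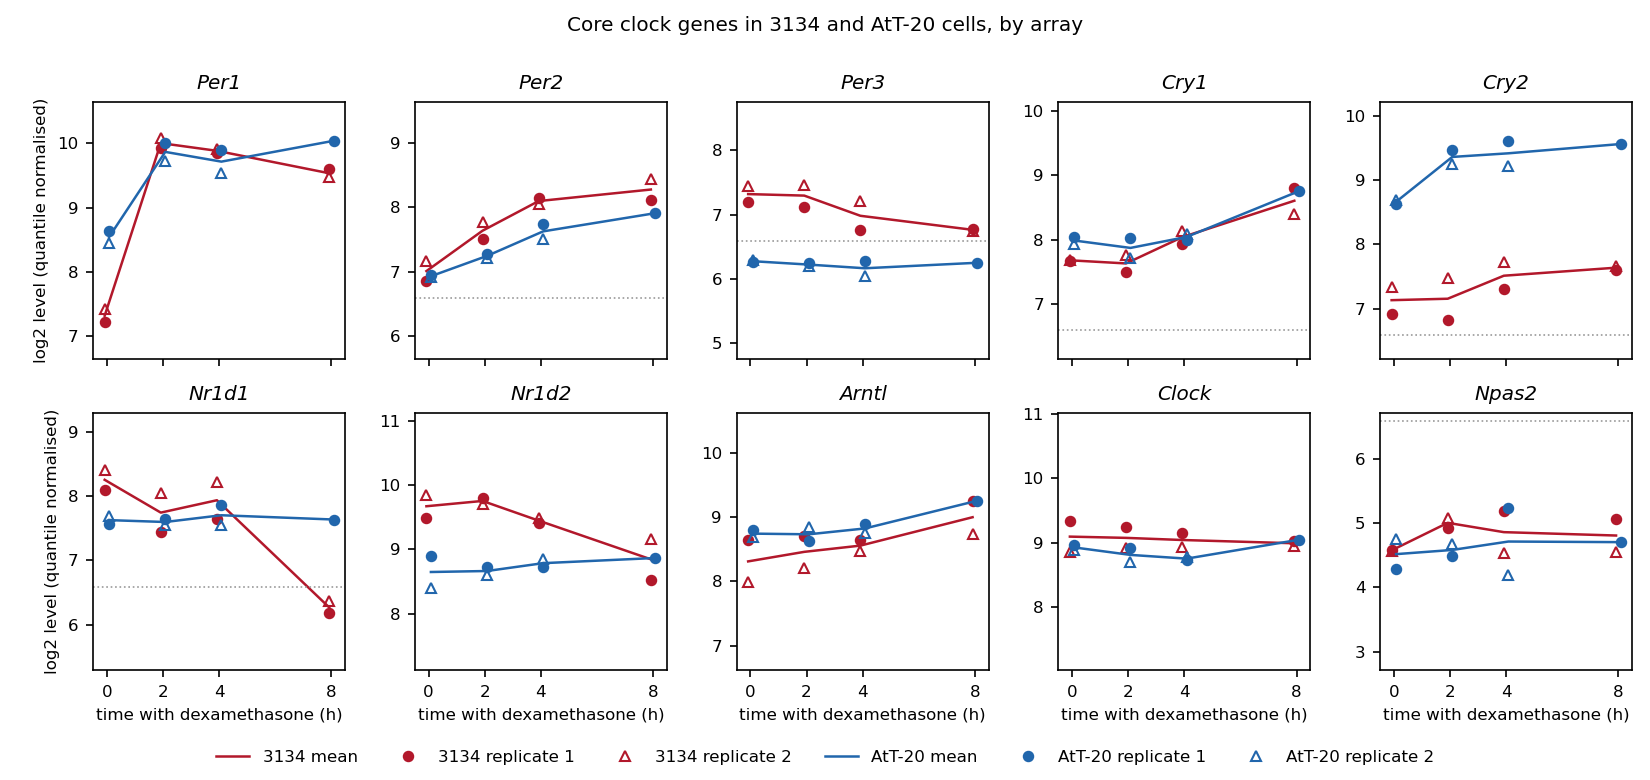
Log2 level of each of the 10 genes (vertical axes, each spanning the same range) against hours with dexamethasone, with 1 symbol per array, lines through the means, and a dotted line at log2 6.59. In 3134 cells Per1 stands at 9.93 and 10.08 at 2 h against 7.22 and 7.41 at 0 h, while Nr1d1 drops below the dotted line at 8 h, to 6.18 and 6.36.

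Per1, whose protein is a repressor of the loop and whose transcript is an early responder to many signals, rose at each time in both lines and had the largest change of the 9 at 2 h and at 4 h. Each array holds RNA of a whole culture, so a change in every cell and one in some of the cells cannot be told apart. In 3134 its log2 level was 7.22 and 7.41 at 0 h, 9.93 and 10.08 at 2 h, 9.86 and 9.91 at 4 h, then 9.60 and 9.47 at 8 h. In AtT-20 it was 8.64 and 8.45 at 0 h, 10.01 and 9.72 at 2 h, 9.89 and 9.54 at 4 h, and 10.04 on the 1 array at 8 h. Every treated array lay above every 0 h array of its line, and the treated arrays of the lines overlapped each other at 2 h and at 4 h. The rise in 3134 was 2.69 ± 0.18 at 2 h (SE, n = 2 arrays each, 6.43-fold; limma adjusted p = 1.46e-05), 2.57 ± 0.18 at 4 h (1.56e-05) and 2.22 ± 0.18 at 8 h (3.38e-05). In AtT-20 it was 1.32 ± 0.18 at 2 h (2.50-fold; limma adjusted p = 0.0137), 1.17 ± 0.18 at 4 h (0.0219) and 1.50 ± 0.22 at 8 h (1 array against 2; 0.0188). The AtT-20 group at 8 h has no spread of its own, and every test of it assumes that the 1 array varies as the arrays of the other groups do. Within the sets the differences were close: 2.71 and 2.66 at 2 h in 3134, and 1.37 and 1.27 at 2 h in AtT-20. The AtT-20 calls rest on few arrays: without any 1 of the 4 arrays the adjusted p at 2 h lay between 0.0572 and 0.251, at 4 h the call held only without the 4 h replicate 2 array (0.0423, and up to 0.306 without the others), and at 8 h it was 0.0676 or 0.176 without 0 h replicate 1 or 2. Median-centring the arrays in place of quantile normalisation also ended the AtT-20 calls (adjusted p 0.0758, 0.18 and 0.0933), whereas the block kept them all.

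Exon arrays give many readings of 1 transcript, and Per1 had 33 probesets, of which 32 were bright. Probesets of a gene are read on the same arrays, so their counts, here and below, are not counts of replicates. The share of all probesets with a change of the same sign was not worked out. In 3134 all 32 had a positive log2 fold change at each time, and 25, 26 and 25 were called higher at 2, 4 and 8 h in a fit of 135912 probesets, where 0.232%, 0.427% and 0.418% of all were called. Their median rise was 2.73, 2.57 and 2.29. In AtT-20, 32, 31 and 31 of the 32 were positive and the medians were 1.43, 1.40 and 1.45, but 0, 4 and 0 were called, beside 0.0184%, 0.0434% and 0.0169% of all probesets. With the block 20 and 22 were called at 2 and 4 h, beside 0.0979% and 0.161%, and 0 at 8 h. The probeset with the largest rise at 2 h in 3134, number 4797033, had group means of 7.48, 10.74, 10.46 and 10.37 at 0, 2, 4 and 8 h there and of 9.02, 10.64, 10.59 and 10.49 in AtT-20. Probeset 5078816 had smaller differences, with group means of 7.06, 7.42, 7.66 and 7.44 in 3134 and of 7.08, 7.44, 7.08 and 6.81 in AtT-20. In 3134 it stood 0.35, 0.60 and 0.37 above 0 h at 2, 4 and 8 h (SE 0.22). Probeset 5410709 moved by 0.80, 0.70 and 0.58 in 3134 at 2, 4 and 8 h. In AtT-20 it moved by 0.20 and 0.25 at 2 and 4 h. Its 0 h levels, 6.25 in 3134 and 6.38 in AtT-20, were under the brightness limit, so the size of its changes is not resolved. Neither probeset passed the test at any time in either line, and their place in the gene was not analysed here. A test of unequal change among the probesets of a gene, limma's diffSplice, called Per1 in 3134 for the mean of 2 and 4 h (adjusted p = 2.07e-05, beside 0.191% of genes) and at 8 h (0.0118, beside 0.262%), but not in AtT-20 (0.155, beside 0.614%). That test gives all probesets of a gene 1 shared spread, and with a spread for each probeset the adjusted p in 3134 was 0.118 for the mean of 2 and 4 h and 0.577 at 8 h, or 0.0419 and 0.164 with the block as well. With the block the AtT-20 value was 0.000102, but 5.83% of all genes passed there, and with a spread for each probeset too it was 0.321.

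**Figure D2:**
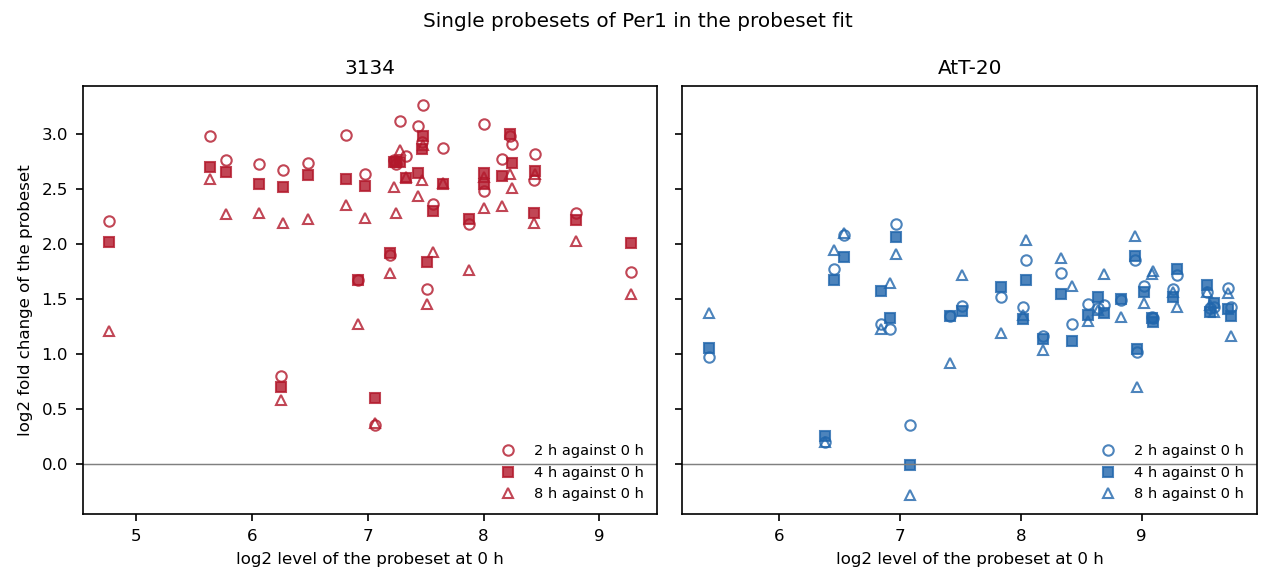
Log2 fold change against 0 h of each of the 32 bright Per1 probesets (vertical axis) against its log2 level at 0 h (horizontal axis), in 3134 (left) and AtT-20 (right), with 1 symbol per time. Most probesets sit near the medians of 2.73 at 2 h in 3134 and 1.43 in AtT-20, and 2 probesets lie far below the rest in both lines.

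Per2, the second Period repressor, was called in 3134 from 4 h. In 3134 it stood at 6.86 and 7.16 at 0 h, 7.50 and 7.77 at 2 h, 8.14 and 8.06 at 4 h, then 8.12 and 8.44 at 8 h. In AtT-20 it stood at 6.95 and 6.92 at 0 h, 7.28 and 7.22 at 2 h, 7.74 and 7.51 at 4 h, and 7.91 at 8 h. No treated array fell among the 0 h arrays in either line. In 3134 it rose by 1.09 ± 0.18 at 4 h (2.13-fold; limma adjusted p = 0.00682) and by 1.27 ± 0.18 at 8 h (0.00251), and the difference of 0.63 ± 0.18 at 2 h was called only with the block (0.207 without it, 0.028 with it). The call at 4 h was lost without 0 h replicate 1 (adjusted p = 0.106) or 4 h replicate 1 (0.0735). The AtT-20 differences were 0.32 ± 0.18, 0.70 ± 0.18 and 0.98 ± 0.22, with adjusted p of 1, 0.476 and 0.252. The block called the one at 4 h (0.0389) and left the one at 8 h at 0.0526. All 31 bright Per2 probesets had a positive change at each time in 3134. Of these 0, 2 and 3 were called, beside 0.232%, 0.427% and 0.418% of all probesets. In AtT-20, 26, 28 and 30 of the 31 were positive, with 0 called.

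Per3, the third Period gene, was not called at any time without the block. Its level in 3134 was 7.20 and 7.45 at 0 h, 7.13 and 7.47 at 2 h, 6.76 and 7.21 at 4 h, then 6.78 and 6.75 at 8 h. In AtT-20 all 7 arrays lay between 6.05 and 6.30, under the brightness limit. The 8 h arrays of 3134 lay below both 0 h arrays, by 0.56 ± 0.19 on average, a difference that limma called only with the block (adjusted p = 0.231 without it, 0.035 with it). Of its 23 bright probesets, 4 had a positive change at 8 h in 3134, and 0 were called.

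Cry1, the stronger repressor of the Cryptochromes, had its highest levels at 8 h in both lines. In 3134 it stood at 7.67 and 7.69 at 0 h, 7.49 and 7.77 at 2 h, 7.94 and 8.14 at 4 h, then 8.81 and 8.41 at 8 h. In AtT-20 it stood at 8.04 and 7.93 at 0 h, 8.03 and 7.72 at 2 h, 8.00 and 8.09 at 4 h, and 8.75 at 8 h. At 8 h all arrays lay above the 0 h arrays, and at 2 h they overlapped. The rise at 8 h in 3134 was 0.93 ± 0.19 (1.90-fold, limma adjusted p = 0.0233). All 16 probesets had a positive change, with 0 called. The AtT-20 array at 8 h lay 0.77 ± 0.23 higher and was not called (adjusted p = 0.836, unadjusted p = 0.00572). The 3134 call was lost without either 0 h array or without 8 h replicate 1, where the rise was 0.73 to 0.93. It was lost too with median-centred arrays (limma adjusted p = 0.0593) and without a filter on low values (0.0544). With the values as deposited it was lost as well (0.992, or 0.12 with the block).

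Cry2 had its larger differences in AtT-20. There it stood at 8.63 and 8.69 at 0 h, 9.47 and 9.25 at 2 h, 9.62 and 9.22 at 4 h, and 9.56 at 8 h. In 3134 it stood at 6.92 and 7.34 at 0 h, 6.83 and 7.48 at 2 h, 7.31 and 7.72 at 4 h, then 7.60 and 7.67 at 8 h. Every treated AtT-20 array lay above the 0 h arrays, whereas the 3134 arrays overlapped at 2 and 4 h. The AtT-20 differences of 0.70 ± 0.25, 0.75 ± 0.25 and 0.90 ± 0.30 were not called by limma (adjusted p of 1, 0.812 and 0.999), also with the block (0.147, 0.0527 and 0.198). The mean of 2 and 4 h, 0.73 above 0 h, was called only with the block (0.783 without it, 0.0311 with it). All 36 Cry2 probesets were positive at 2 h and at 4 h in AtT-20, with 0 called.

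Nr1d1, which encodes the repressor REV-ERB alpha, was the only one of the 9 called lower than at 0 h without the block. With it Nr1d2 and Per3 were called lower too, at 8 h in 3134. In 3134 Nr1d1 stood at 8.10 and 8.41 at 0 h, 7.44 and 8.04 at 2 h, 7.65 and 8.22 at 4 h, then 6.18 and 6.36 at 8 h. In AtT-20 all 7 arrays lay between 7.55 and 7.86 whatever the time. The 8 h arrays of 3134 lay far below all others of that line, and below the brightness limit of 6.59, where the size of a fall is not resolved. It fell by 1.99 on the log2 scale, a 3.96-fold lower level (SE 0.24, n = 2 arrays each; limma adjusted p = 0.000809), with 1.92 and 2.05 in the 2 sets (1.99 with the block; 6.02e-06). Leaving out any 1 array kept the call, with adjusted p from 0.00706 to 0.0169. The AtT-20 array at 8 h differed by 0.01 ± 0.29 from 0 h (95% interval -0.64 to 0.65), and the difference between the lines at 8 h was not tested.

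Nr1d1 shares its 3′ end with Thra, the thyroid hormone receptor alpha gene, which lies on the opposite strand and next to it in the RefSeq table. All 9 Nr1d1 probesets that map to no other gene were lower at 8 h in 3134, by 0.48 to 2.99, with a median change of -2.06. Limma called 3 of them, beside 0.418% of all probesets, and 6 with the block, beside 1.6%. The strongest was probeset 4581296, with group means of 9.13, 8.42, 8.51 and 6.14 at 0, 2, 4 and 8 h. Of the 14 bright Thra probesets 11 had a positive change at 8 h, the median was 0.14 and 0 were called. The 1 probeset assigned to both genes had levels of 7.98 and 8.08 at 8 h against 8.46 and 9.06 at 0 h in 3134. Thra itself stood at 9.34 and 8.57 at 8 h against 8.96 and 8.38 at 0 h, a difference of 0.28 ± 0.35 (adjusted p = 0.861). The test of unequal change among the Nr1d1 probesets gave a diffSplice adjusted p of 0.673, and of 0.00136 with the block, where 3.1% of all genes passed, but of 0.368 with the block and a spread for each probeset.

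**Figure D3:**
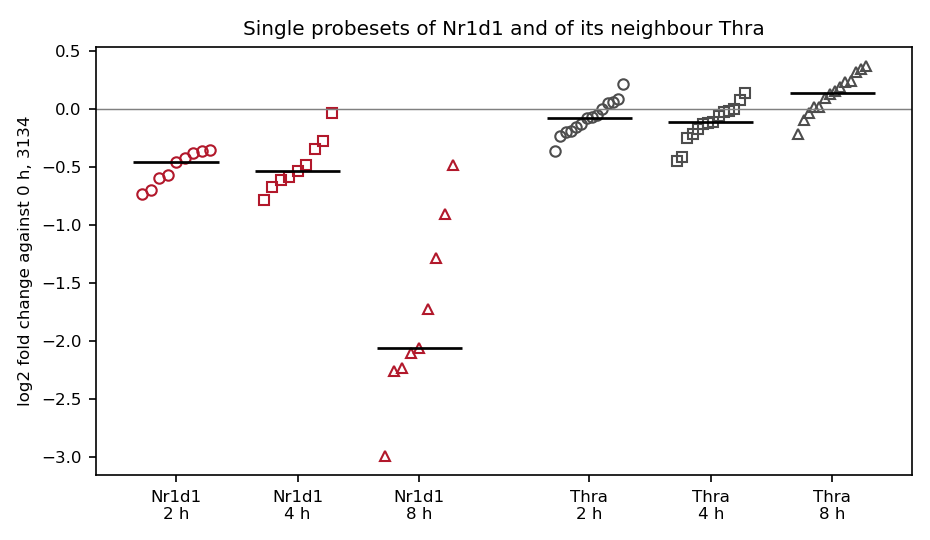
Log2 fold change against 0 h in 3134 cells (vertical axis) of the 9 Nr1d1 probesets and the 14 bright Thra probesets at 2, 4 and 8 h, sorted within each column, with a bar at the median. At 8 h the Nr1d1 median is -2.06 and the Thra median is 0.14.

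Nr1d2, which encodes REV-ERB beta, had its lowest levels in 3134 at 8 h. It stood there at 9.49 and 9.85 at 0 h, 9.80 and 9.71 at 2 h, 9.41 and 9.49 at 4 h, then 8.53 and 9.16 at 8 h. In AtT-20 the 7 arrays lay between 8.40 and 8.90 and treated and 0 h arrays overlapped at each time. The difference at 8 h in 3134 was -0.83 ± 0.23, not called without the block (limma adjusted p = 0.113) and called with it (0.0184). All 13 of its probesets were lower at that time, with 0 called.

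Among the activators, limma called neither Arntl nor Clock without the block, and with it called Arntl at 8 h in 3134. In 3134 Arntl stood at 8.64 and 7.99 at 0 h, 8.71 and 8.22 at 2 h, 8.65 and 8.47 at 4 h, then 9.26 and 8.75 at 8 h. In AtT-20 it stood at 8.80 and 8.69 at 0 h, 8.63 and 8.84 at 2 h, 8.90 and 8.75 at 4 h, and 9.26 at 8 h. The replicate 1 arrays of 3134 were higher than replicate 2 at each time. The difference at 8 h was 0.69 ± 0.25 in 3134 (limma adjusted p = 0.266, and 0.0151 with the block) and 0.51 ± 0.30 in AtT-20 (0.999). All 21 Arntl probesets were higher at 8 h in 3134, with 0 called, and 20 of 21 were higher on the 1 AtT-20 array. Clock, the partner of ARNTL, lay between 8.86 and 9.33 on the 8 arrays of 3134 and between 8.70 and 9.05 on the 7 of AtT-20. Its differences from 0 h ran from -0.17 to 0.12, with a 95% interval of -0.52 to 0.31 at 8 h in 3134. Npas2 had group means of 4.52 to 5.00, with 7 of its 26 probesets bright, and no change can be read from it.

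**Figure D4:**
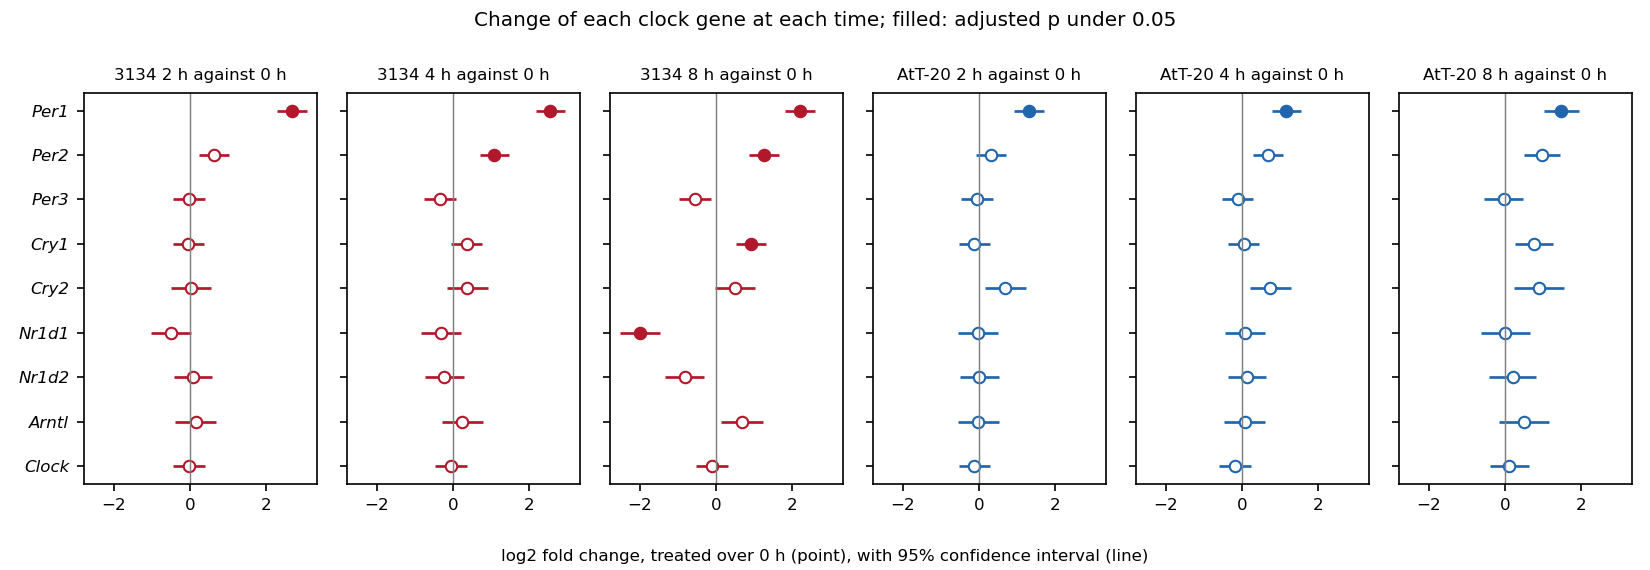
Log2 fold change against 0 h (horizontal axis, points) with its 95% interval (lines) of the 9 tested clock genes in 6 panels, 1 for each line and time, where filled points have a limma adjusted p under 0.05. Per1 is filled in all 6 panels, and Per2, Cry1 and Nr1d1 are filled only in panels of 3134.

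The response of the 2 lines was compared over the mean of 2 and 4 h, since AtT-20 has 1 array at 8 h. Of the 9 genes only Per1 was called, beside 0.645% of all genes. Its rise was 2.63 ± 0.15 in 3134 and 1.25 ± 0.15 in AtT-20, a difference of 1.38 ± 0.22 (limma adjusted p = 0.0125). At 0 h Per1 was lower in 3134 than in AtT-20 by 1.23 ± 0.18 (adjusted p = 8.48e-05), whereas at 2 h it averaged 10.00 ± 0.11 in 3134 and 9.87 ± 0.20 in AtT-20 (SD, n = 2 each). The call of the difference was lost without either 0 h array of 3134 or without 0 h replicate 1 of AtT-20. Over the 32 bright Per1 probesets the same difference ran from 0.30 to 1.67, and the lowest limma adjusted p was 0.0929, above the threshold. Per2 differed by 0.35 ± 0.22 (95% interval -0.13 to 0.83) and Cry2 by -0.52 ± 0.30 (-1.18 to 0.13) between the responses, and neither was called.

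Between the lines at 0 h, 5 of the 9 genes were called, beside 54.5% of all genes. Nr1d2 (1.02 ± 0.23; adjusted p = 0.00252) and Nr1d1 (0.63 ± 0.24; 0.0434) were higher in 3134. Per3 was the third called higher there, but its AtT-20 level was under the brightness limit and it was tested only because of its level in 3134, so the size of its difference is not resolved. Cry2 (-1.53 ± 0.25; 0.000205) and Per1 were lower there. With the block Arntl was lower as well (-0.43 ± 0.25; adjusted p = 0.165 without it and 0.0221 with it). For 8 h against 2 h within 3134, limma called 0 of the 9, beside 0.0907% of all genes, with 6 of 9 at an unadjusted p under 0.05. The largest differences were -1.47 ± 0.24 for Nr1d1 (adjusted p = 0.0505) and 0.98 ± 0.19 for Cry1 (0.0764). With the block 4 were called, beside 1.99% of all genes: Cry1 (0.0125) and Per2 (0.0381) higher, Nr1d1 (0.000777) and Nr1d2 (0.0294) lower.

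A list of 38 other genes of the clock pathway was set beside the 10: output regulators, ROR activators, kinases, ubiquitin ligases, and cofactors. Of these, 32 had a value and 31 were tested. In 3134, 2 were called higher at 2 h, 1 at 4 h and 2 at 8 h, beside 1.22%, 1.91% and 2.19% of all genes. In AtT-20, 1 was called higher at 2 h and 1 at 4 h, beside 0.0907% and 0.171%. Its 8 h group, of 1 array, is not counted here. Of the 31, 0 were called lower in the comparisons counted. The median log2 fold changes of the 31 lay between -0.06 and 0.05 over the 6 comparisons with 0 h. With the block 4 of them were higher at 2 h, 4 at 4 h and 3 at 8 h in 3134, beside 2.98%, 5.17% and 7.88% of all genes. It added Bhlhe41 and Ep300, a coactivator, at 2 and 4 h, and Usp2 at 4 and 8 h. Nfil3, the repressor that competes for the D-box, stood in 3134 at 8.56 and 8.70 at 0 h, 11.28 and 11.40 at 2 h, 10.69 and 11.09 at 4 h, then 10.33 and 10.74 at 8 h. It rose by 2.72 ± 0.19, 2.26 ± 0.19 and 1.90 ± 0.19 (limma adjusted p = 1.62e-05, 6.04e-05 and 0.000198). It was not called in AtT-20, where its levels at 0 h were 9.27 and 9.44 and those at 2 h 9.65 and 9.84, and its responses differed between the lines by 2.17 ± 0.23 (0.000883).

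Usp2, a deubiquitinase known to act on clock proteins, was called in both lines. In AtT-20 it stood at 8.08 and 7.94 at 0 h, 9.29 and 9.47 at 2 h, 9.18 and 9.16 at 4 h, and 8.91 at 8 h, and in 3134 at 6.95 and 6.88 at 0 h, 8.08 and 7.70 at 2 h, 7.68 and 7.54 at 4 h, then 7.51 and 7.42 at 8 h. It rose by 1.37 ± 0.16 at 2 h (limma adjusted p = 0.00617) and 1.16 ± 0.16 at 4 h (0.016) in AtT-20 and by 0.98 ± 0.16 at 2 h in 3134 (0.0125). The 3134 differences of 0.70 at 4 h and 0.56 at 8 h were called only with the block (0.0575 and 0.141 without it, 0.00914 and 0.0268 with it). Bhlhe41, which encodes the E-box repressor DEC2, rose by 0.78 ± 0.15 at 8 h in 3134 (0.0167), with 11.06 and 11.06 at 8 h against 10.17 and 10.38 at 0 h. Dbp, an output gene that ARNTL and CLOCK drive through E-boxes, was not called at any time, and its levels lay between 7.51 and 8.07 in 3134 and between 7.69 and 8.33 in AtT-20.

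The genes whose pattern was most like that of Per1, Per2 and Nr1d1 were ranked by Pearson's r over the 15 arrays, after the mean of each line and set was subtracted. The arrays share lines, sets and 0 h references, so r is given as a description only. The closest genes were picked by r on these same arrays, so their changes follow from that choice and are no separate result. Closest to Per1 were Ddit4 (0.989), Arrdc2 (0.975), Rgs2 (0.973), Fkbp5 (0.955) and Sgk1 (0.951). At 2 h in 3134 the changes of these 5 ran from 2.06 for Ddit4 to 2.90 for Rgs2. Closest to Per2 were Mapk14 (0.939), Prr15l (0.937), Furin (0.936), Serinc3 (0.935) and Slco2a1 (0.932). Prr15l changed by 1.24, 1.63 and 2.06 at 2, 4 and 8 h in 3134, and Serinc3 by 0.42 (not called), 0.75 and 1.02. Mapk14, Furin and Slco2a1 differed by 0.47, 1.23 and 0.46 at 8 h there. Of these Furin was called, Mapk14 only with the block (limma adjusted p 0.184 without it, 0.0427 with it), and Slco2a1 in neither fit. Closest to Nr1d1 were Nat10 (0.965), Nop56 (0.963), Dctd (0.962), Smyd5 (0.955) and Rrp15 (0.954), none of them a clock gene. Nat10, Nop56 and Rrp15, known in ribosome biogenesis, fell by 0.81, 0.87 and 1.08 at 8 h in 3134. Dctd and Smyd5 lay lower by 0.79 and 0.68 there, called only with the block (limma adjusted p 0.118 and 0.145 without it, 0.00423 and 0.012 with it). Among the 9 tested clock genes, r was highest between Cry1 and Arntl (0.858), Per1 and Per2 (0.783) and Per3 and Nr1d1 (0.783). It was lowest between Per2 and Per3 (-0.766), Nr1d1 and Arntl (-0.755) and Cry1 and Nr1d2 (-0.751).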

How the data were processed

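Transcripts of 3134 and AtT-20 cells were measured on 15 single-colour Affymetrix mouse exon arrays. Per the submitters' processing notes, the authors made the deposited log2 values, 1 per probeset and array, with Affymetrix Expression Console and RMA, versions not given in the sources used here. The array medians differed between serial sets (6.76 to 7.20 and 7.83 to 8.14 in 3134, 6.93 to 7.22 and 7.51 to 7.86 in AtT-20), so the 15 arrays were quantile normalised here. Of 228090 probesets, 207232 had 1 gene symbol in the platform annotation and were used. 2086 old symbols were updated through RefSeq synonyms. A gene's value was the median over at least 3 probesets, and a gene was tested where its highest group mean reached the 40th percentile, log2 6.59. Group means of all 15 arrays were fitted with limma 3.58.1 in R 4.3.3 and data.table (version 1.17.8), with 7 residual degrees of freedom, 5 with the block, and with Benjamini-Hochberg adjustment over all genes or all probesets tested and a threshold of 0.05. Groups came from the titles. Arrays of 1 line and set deviated from their group means together (r 0.492 to 0.590 over 9 pairs, and 0.277 to 0.391 over 12 pairs across lines). The sets were taken as paired only in the fit with the block. The main fit, which gave every call and standard error where the block is not named, leaves the set out. Whether replicates came from separate cultures is not stated, and the p-values therefore reflect the spread among arrays alone, which may be technical. Precision is limited by how few arrays there are, with a median standard error of 0.215, or 0.264 for AtT-20 at 8 h. The highest correlation between 2 arrays was 0.985, and none was taken for a repeat. 0 other columns of per-sample values were left aside. The members, lists, tests and alternatives were chosen with earlier results of these data known. The named genes were all 10 members, Thra, Fkbp5 and Tsc22d3, members of the pathway list called against 0 h, and the 5 genes most correlated with Per1, Per2 and Nr1d1. Dbp, Rora, Rorb and the 3 single probesets of Per1 and 1 of Nr1d1 were named after their values were seen. The fits were tested on simulated data. Promoter letters were searched with a script, and the alternatives tried are given in the closing section.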

Additional observations from a re-analysis of the deposited data

Results flagged for a closer look

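The response of Per1 differed between the lines by a test of that difference on gene values. The call was lost without either 0 h array of 3134 or without 0 h replicate 1 of AtT-20, and no single Per1 probeset passed that test. Averaged over 2 and 4 h, Per1 rose by 2.63 ± 0.15 in 3134 cells and by 1.25 ± 0.15 in AtT-20 cells, a difference of 1.38 on the log2 scale (SE 0.22; limma adjusted p = 0.0125, and 0.000432 with the replicate block). Every treated array lay above every 0 h array of its line. Markers of the lines, their array sets and the level at 0 h, 7.22 and 7.41 in 3134 against 8.64 and 8.45 in AtT-20, move with this difference, and their part in it was not tested.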

How the results depend on the processing

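No called change of a clock gene changed sign under any alternative run. The deposited scale, on which the 2 sets stand apart and the median of all genes moved by up to 0.48, gave Per1 changes of 2.74, 2.33 and 1.90 in 3134 and of 1.33, 0.92 and 1.98 in AtT-20, none called, and 0 clock genes called in every comparison. With the replicate block added on that scale, 1 Per1 call against 0 h was lost, at 4 h in AtT-20 (0.92, and 0 clock genes called). The Cry1 call at 8 h in 3134 was lost there too (0.59; limma adjusted p = 0.12). On the same setting 8 h against 2 h in 3134 had 2 called. In AtT-20 the Per1 changes were also not called with median-centred arrays (1.33, 1.08 and 1.51) or with the arrays of that line alone (1.32, 1.17 and 1.50), and without a filter on low values at 4 and 8 h (1.17 and 1.50); each left 0 clock genes called. Leaving out 1 array gave Per1 changes of 1.18 to 1.46, 1.00 to 1.35 and 1.40 to 1.59 at 2, 4 and 8 h in AtT-20, with 0 to 1 clock genes called, 1 to 2 at 4 h in 3134, and 0 to 1 for the difference of responses.

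The replicate block called 2, 7, 4 and 2 clock genes at 2 h, at 8 h and at 8 h against 2 h in 3134 and at 4 h in AtT-20, and 20 and 22 Per1 probesets at 2 and 4 h in AtT-20, and it moved no other of the counts of clock genes in the 9 comparisons of the alternatives, or of Per1 probesets, by over 1.5 times. Median-centred arrays with the replicate block called 2 at 2 h and 3 at 8 h against 2 h in 3134. The last comparison had 1 called with a 60th percentile filter and with a trended robust spread, and 3 with means over probesets, which also called 2 at 8 h in AtT-20. Median-centred arrays called 0 Per1 probesets at 4 h in AtT-20. The test of unequal Per1 probesets gave 0.118 in 3134 with a spread per probeset and 0.000102 in AtT-20 with the block. The deposited scale with the block, median centring with the block, and the spread per probeset were chosen after seeing the data. The cause of these moves was not tested. Of the results for the 8 tested genes other than Per1, 671 kept their side of the threshold under the alternatives, 12 gained a call and 12 lost one. Signal over background limits Npas2 in both lines, Per3 and Rorb in AtT-20, Rora in 3134 and Nr1d1 at 8 h in 3134.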

Other observations

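Tsc22d3, a second known glucocorticoid target, had levels of 9.55 and 10.19 at 2 h against 7.37 and 7.36 at 0 h in 3134, a rise of 2.50 ± 0.33 (limma adjusted p = 0.00264). In AtT-20 its levels were 8.35 and 8.14 at 2 h against 7.60 and 7.35 at 0 h, and the difference of 0.77 ± 0.33 was not called (adjusted p = 1). At 0 h the ROR genes of the pathway list stood apart between the lines. Rorb was at 8.06 and 8.16 in 3134 against 4.56 and 4.54 in AtT-20, and Rora at 4.96 and 5.38 in 3134 against 8.91 and 8.55 in AtT-20. The lower levels lie under the brightness limit of 6.59, so the sizes of these differences are not resolved.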
